A study of Mus musculus with 28 samples.

Results

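Microglia identity and activation genes were followed over all 10 groups of a microarray series on mouse hippocampus. The members were 35 named genes, and a member was measured where a probe set of the deposited table carried its symbol and no other. That held for 34 of the 35, each by 1 probe set, out of 19938 genes measured in all. Spp1 had no such probe set. The members fall into 4 roles: 8 homeostatic genes, 9 pan-myeloid genes, 4 genes of Trem2, its adaptor and the Fc receptors, and 14 activation genes, of which 13 were measured.

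Microglia are the resident macrophages of the brain. In healthy tissue they survey neurons with fine processes, depend on signalling through the CSF1 receptor, and carry receptors for fractalkine (Cx3cr1) and for nucleotides leaking from stressed cells (P2ry12, P2ry13). In injury and degeneration they can move, partly through Trem2 and its adaptor Tyrobp, to a state with more lysosomal and lipid-handling genes such as Cst7, Clec7a, Itgax, Gpnmb and Lpl, and less P2ry12, Tmem119 and Cx3cr1. Kainate (KA) activates glutamate receptors and causes seizures in rodents. FosB and its shorter form ΔFosB pair with Jun proteins to form the transcription factor AP-1, and neurons make them after strong activity.

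The 28 arrays were Affymetrix Mouse Gene 1.0 ST, each from 100 ng of total RNA of whole hippocampus of C57BL/6J mice perfused with saline. In mice of 10 weeks, wild type, fosB-null (G/G) and fosB d/d animals (labelled as lacking FosB protein, an allele known to leave ΔFosB) had received saline or KA, with 3 arrays in each of the 6 groups. In aged mice of 64.7 to 71 weeks, with no treatment label, there were 3 arrays of wild type, 3 of fosB-null with epilepsy, 2 of fosB-null without epilepsy and 2 of fosB d/d without epilepsy. The age labels were followed, although the growth protocol, worded alike for all 28 samples, gives 14 months, so aged against young rests on the labels alone. The sources used here give neither the KA dose nor the time from KA to sampling. Arrays of a group are labelled as biological replicates, with nothing on litters or pooling, so p-values measure the spread between these samples. In RNA of whole tissue, fewer cells of a type and less RNA per cell cannot be told apart, so every value below belongs to the hippocampus and not to a microglial cell.

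Neurons of the hippocampus were evident on every array: Neurod6 was brighter than 89.7 to 96.4% of genes and Prox1, of dentate granule cells, than 86.1 to 93.5%. Fosb, the targeted gene, had saline means of 8.45 for fosB-null, 8.74 for wild type and 9.18 for fosB d/d mice, and passed in no comparison. Nothing in the sources used here says which exons its probes read, so this signal is no check of the genotype. The young arrays came in 3 sets by replicate number and deposited median: replicate 1 of the 6 groups (set 1, medians 8.07 to 8.11), replicates 2 and 3 of the saline groups and wild type KA (set 2, 8.33 to 8.43), and replicates 2 and 3 of KA in both mutants (set 3, 8.05 to 8.11). All values here were therefore quantile normalized. KA in the mutants is tied to set 3 except in replicate 1. Most member results on it, and some border macrophage and astrocyte markers, are therefore also given with the set as a block or without these 4 arrays. Member values for KA in fosB d/d alone, and other listed genes in the mutants, are given without such a check. Set 3 holds no other group. The block, like leaving set 3 out, thus compares KA in the mutants with other groups mainly through replicate 1. On the deposited scale the median gene moved by -0.17 log2 units with KA in both mutants and by 0.01 in wild type. All mice are labelled female, but Y-linked Uty was at 9.38 to 9.87 in the 18 young arrays and at 5.21 to 5.78 in the 10 aged, so young and aged arrays differ in that signal as well as in age and injection.

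In wild type mice, KA was followed by higher signal of pan-myeloid, Fc receptor and activation genes, while the homeostatic genes mostly did not pass. Of the 34 members, 16 rose and 2 fell at an adjusted p under 0.05, against 6.9% of all genes called, 3.48% higher and 3.42% lower. The median member differed by 0.29 log2 units, and the median of all genes by 0.006. By role, 1 of 8 homeostatic genes rose and 1 fell, 6 of 9 pan-myeloid genes rose, 3 of 4 genes of the Trem2 and Fc receptor group rose, and of 13 activation genes 6 rose and 1 fell. The groups did not overlap for 18 members that were higher and 4 that were lower, where 10.8 and 11.5% of all genes had such separation. All 18 members that passed had the same sign in replicate 1 alone, and all 18 also passed among the set 2 arrays alone, where 19 members passed. These are parts of the arrays that gave the 18 calls, so their agreement is no separate support.

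**Figure D1:**
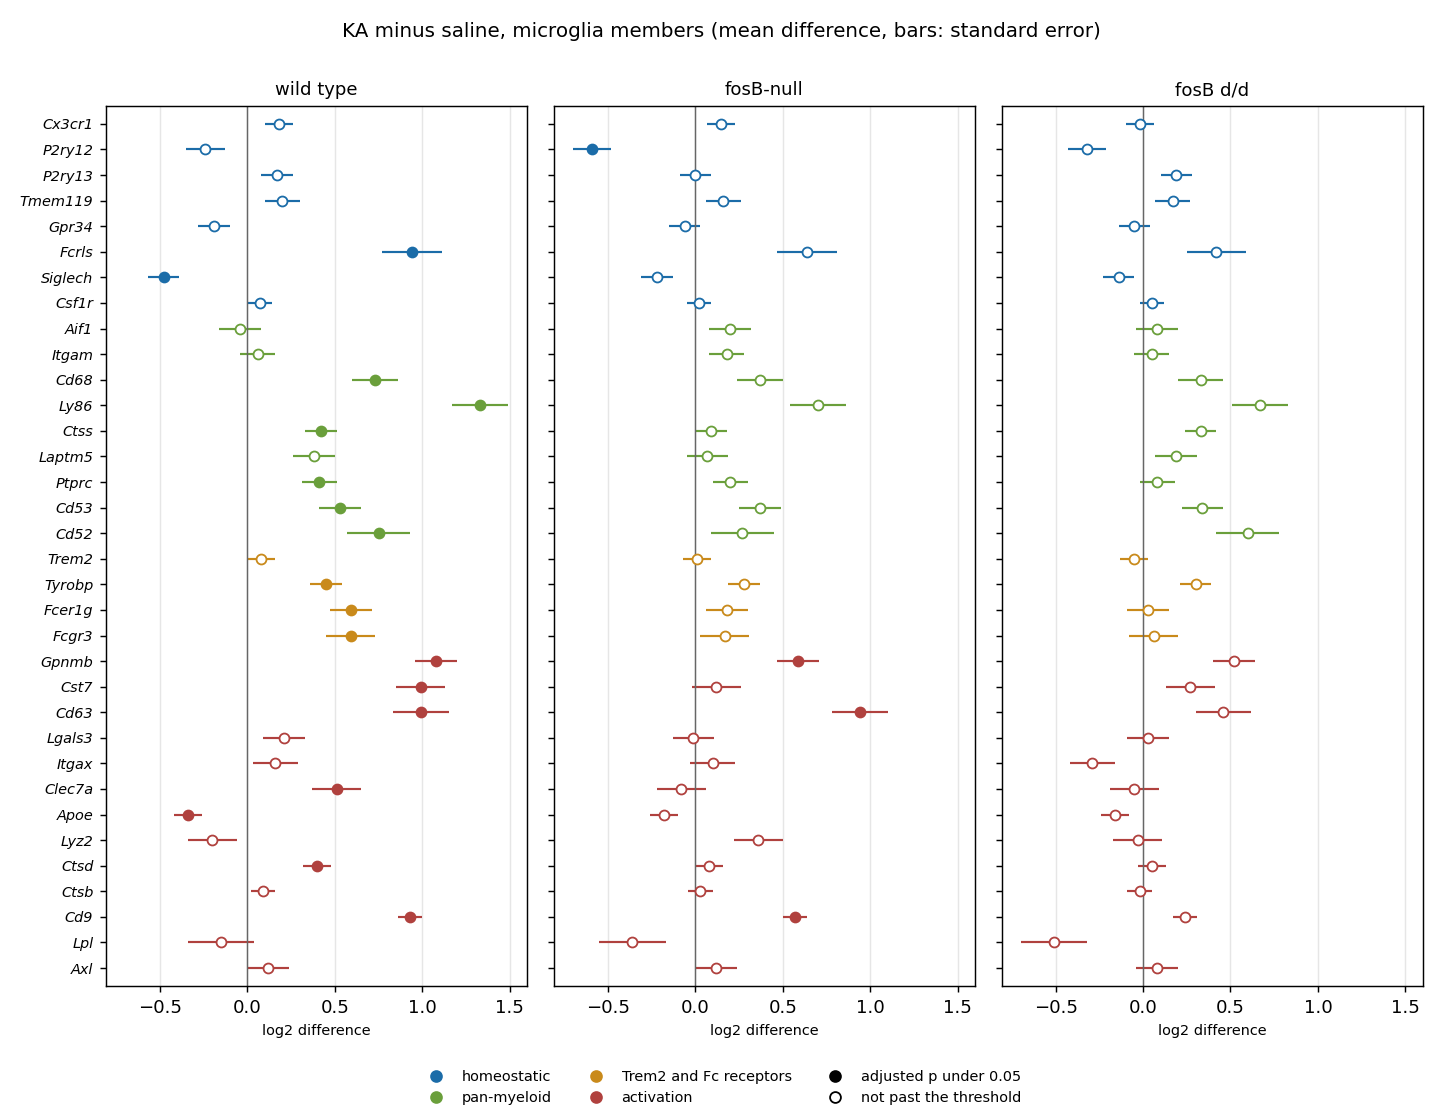
KA minus saline for the 34 measured members in wild type, fosB-null and fosB d/d mice; the x axis is the log2 difference of group means (3 arrays against 3), bars are standard errors, colours are roles, and filled points have an adjusted p under 0.05. Filled points number 18 for wild type, 4 for fosB-null and 0 for fosB d/d mice.

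Among the homeostatic genes, Fcrls, an Fc receptor-like protein found on microglia, was at 9.13, 9.09 and 8.75 in the wild type saline arrays (log2 signal, replicates 1, 2 and 3) and at 10.26, 9.78 and 9.74 after KA. Every KA array was above every saline array, and the rise was 0.94 log2 units (standard error, SE, 0.17, adjusted p = 0.00324). Siglech, a sialic acid-binding lectin of microglia, went the other way, from 9.23, 9.20 and 9.23 to 8.50, 8.82 and 8.91, a fall of -0.48 (SE 0.09, adjusted p = 0.00357). The saline arrays lay within a few hundredths of each other, and replicate 1 was the lowest of the KA arrays. P2ry12, the receptor that steers microglial processes to ADP, was at 9.04, 8.91 and 8.95 in saline and 8.70, 8.80 and 8.66 after KA. These groups did not overlap either, but the difference of -0.24 did not pass (SE 0.11, adjusted p = 0.238).

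The other 5 homeostatic genes did not pass and lay between -0.19 and 0.20. They were the fractalkine receptor Cx3cr1 (0.18), the nucleotide receptor P2ry13 (0.17), the surface protein Tmem119 (0.20), the lysophospholipid receptor Gpr34 (-0.19) and the CSF1 receptor Csf1r (0.07). For Csf1r the 95% interval of the difference ran from -0.06 to 0.21, and for Cx3cr1 from 0.01 to 0.35. Homeostatic genes thus did not move as a block: the list held a member that rose by 0.94 and another that fell.

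The pan-myeloid genes held the member with the largest KA difference in wild type. Ly86, which encodes MD-1, the partner of the RP105 receptor, was at 10.50, 10.32 and 10.25 in saline and at 11.78, 11.59 and 11.67 after KA. The gap between the lowest KA array and the highest saline array exceeded the range within either group, and the rise was 1.33 log2 units, a fold of 2.51 (SE 0.16, adjusted p = 0.000124). Cd68, a lysosomal glycoprotein of macrophages, went from 9.83, 9.59 and 9.45 to 10.57, 10.14 and 10.34 (0.73, SE 0.13, adjusted p = 0.0028). In that gene the saline and KA arrays of replicate 1 were each the highest of their group.

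Cd52, a small glycoprotein of leukocyte membranes, went from 7.31, 6.79 and 6.88 to 8.17, 7.48 and 7.59 (0.75, SE 0.18, adjusted p = 0.016). Cd53, a tetraspanin of leukocytes, went from 8.88, 8.94 and 8.82 to 9.34, 9.37 and 9.51 (0.53, adjusted p = 0.0117). Both pairs of groups were apart in every array. Ctss, a cysteine protease of lysosomes, went from 9.46, 9.34 and 9.28 to 9.84, 9.85 and 9.65 (0.42, adjusted p = 0.00905), and Ptprc, the CD45 phosphatase, from 7.40, 7.32 and 7.25 to 7.56, 7.86 and 7.79 (0.41, adjusted p = 0.0248). Laptm5, a lysosomal membrane protein, also had no overlap between groups, and its difference of 0.38 did not pass (SE 0.12, adjusted p = 0.0635). The common microglia stains behaved otherwise: Aif1, which encodes IBA1, differed by -0.04 (95% interval -0.30 to 0.22) and Itgam, which encodes CD11b, by 0.06 (-0.15 to 0.27), with saline and KA arrays overlapping.

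In the Trem2 and Fc receptor group, 3 of 4 members rose and Trem2 itself did not pass. Fcer1g, the gamma chain shared by Fc receptors, went from 10.25, 9.99 and 9.96 to 10.86, 10.56 and 10.54 (0.59, SE 0.12, adjusted p = 0.00531). Fcgr3, a low-affinity receptor for immunoglobulin G, went from 8.85, 8.54 and 8.36 to 9.46, 9.06 and 9.0 (0.59, SE 0.14, adjusted p = 0.017); it has close relatives in the Fc receptor family whose transcripts may share probe matches. Tyrobp, the adaptor also called DAP12, went from 9.53, 9.51 and 9.28 to 9.98, 9.82 and 9.85 (0.45, SE 0.09, adjusted p = 0.00599). All 3 had every KA array above every saline array. Trem2, the lipid-sensing receptor that signals through Tyrobp, was at 9.21, 9.16 and 9.32 in saline and 9.25, 9.37 and 9.31 after KA, and differed by 0.08 (95% interval -0.09 to 0.25).

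Of the 13 activation genes 4 rose by about 1 log2 unit, 2 rose by less, 1 fell and 6 did not pass. Gpnmb, a glycoprotein of lipid-laden macrophages, was at 8.74, 8.54 and 8.43 in saline and 9.88, 9.48 and 9.58 after KA, a rise of 1.08 (SE 0.12, adjusted p = 5.97e-05). Cst7, the cathepsin inhibitor cystatin F, went from 7.23, 7.14 and 7.25 to 8.63, 7.93 and 8.03, a rise of 0.99 (SE 0.14, adjusted p = 0.000387). In both genes replicate 1 of KA stood highest.

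Cd9, a tetraspanin, went from 9.46, 9.46 and 9.44 to 10.51, 10.31 and 10.33, with the smallest adjusted p of any member (0.93, SE 0.07, adjusted p = 6.69e-06). Cd63, a tetraspanin of late endosomes, went from 9.94, 9.74 and 10.04 to 11.38, 10.54 and 10.78 (0.99, SE 0.16, adjusted p = 0.00104). Both groups were apart in every array, with KA replicate 1 the highest again. Ctsd, an aspartic protease of lysosomes, went from 11.97, 11.87 and 12.15 to 12.46, 12.42 and 12.32 (0.40, adjusted p = 0.0048), and Clec7a, the beta-glucan receptor Dectin-1, from 6.63, 6.39 and 6.68 to 6.81, 7.12 and 7.30 (0.51, adjusted p = 0.0419). Clec7a is the least settled of these: it no longer passed in 7 of 14 alternative settings, including 5 of the 6 that leave out an array.

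Apoe, the main lipid carrier of the brain and abundant in astrocytes, fell, from 13.06, 13.12 and 13.14 to 12.67, 12.82 and 12.83 (-0.34, SE 0.08, adjusted p = 0.0206). No KA array reached the saline range. Apoe, Cd63, Cd9, Ctsd, Ctsb, Axl and Lpl are made by other brain cells too, so their signal is not that of microglia alone. The remaining 6 activation genes did not pass: the lectin Lgals3 differed by 0.21, the integrin Itgax by 0.16, the receptor kinase Axl by 0.12, the protease Ctsb by 0.09, the lipase Lpl by -0.15 and the lysozyme Lyz2 by -0.20. The near-identical paralog Lyz1 leaves the Lyz2 signal uncertain.

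Promoters are shown for 3 members because AP-1, which FosB forms with Jun, and the myeloid factor PU.1 bind known letters. Cd68 rose with KA in wild type and holds AP-1 letters, and Cst7 and Cd9 were lower in both mutants than in wild type after KA. The windows are the 250 bases before the start in the RefSeq promoter table (GRCm38.p6), which held 28 of the 35 members, and capitals mark the motif found. Cd68 lies at chr11:69666171-69666420, minus strand, with 2 matches to the AP-1 letters TGANTCA, Cst7 at chr2:150570165-150570414, plus strand, with 1 match to the ETS core GGAAGT, and Cd9 at chr6:125494761-125495010, minus strand, with 1 match to the M-box core CATGTG on the other strand.
Cd68: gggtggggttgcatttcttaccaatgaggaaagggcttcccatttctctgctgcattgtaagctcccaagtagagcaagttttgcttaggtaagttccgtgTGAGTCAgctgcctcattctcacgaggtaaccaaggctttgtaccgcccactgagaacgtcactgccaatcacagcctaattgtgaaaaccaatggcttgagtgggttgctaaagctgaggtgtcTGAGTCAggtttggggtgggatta
Cst7: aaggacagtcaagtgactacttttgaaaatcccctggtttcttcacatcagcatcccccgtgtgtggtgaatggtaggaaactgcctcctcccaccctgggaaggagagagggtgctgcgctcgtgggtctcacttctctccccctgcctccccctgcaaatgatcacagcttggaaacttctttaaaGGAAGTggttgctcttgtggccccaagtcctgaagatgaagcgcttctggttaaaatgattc
Cd9: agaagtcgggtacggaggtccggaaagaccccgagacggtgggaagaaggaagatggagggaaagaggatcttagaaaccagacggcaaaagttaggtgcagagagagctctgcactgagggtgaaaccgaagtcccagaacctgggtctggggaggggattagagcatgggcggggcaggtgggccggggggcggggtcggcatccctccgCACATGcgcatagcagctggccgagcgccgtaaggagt
Each motif was searched on both strands and none contains another. TGANTCA stood in 3 of the 28 windows (10.7%: Cd68, Trem2 and Itgax), against 7.82% of 27025 genes. GGAAGT stood in 10 of 28 (35.7%), against 22.2%, and CATGTG, the core bound by Mitf and Tfe proteins, in 2 of 28 (7.14%: P2ry13 and Cd9), against 13.8%. Of other members with a large response, Gpnmb and Ly86 held none of these letters in their windows, while Fcrls and Cd63 held GGAAGT. A match is a description of letters, not a site.

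In fosB-null mice 4 members passed with KA, 3 higher and 1 lower, against 0.762% of all genes (0.471% higher, 0.291% lower). The median member differed by 0.14. Cd63 rose from 9.69, 9.79 and 9.72 to 10.66, 10.70 and 10.64, with arrays close together on both sides (0.94, SE 0.16, adjusted p = 0.0103). Cd9 rose from 9.37, 9.26 and 9.35 to 9.87, 9.96 and 9.86 (0.57, SE 0.07, adjusted p = 0.00364). Gpnmb rose from 8.33, 8.30 and 8.21 to 8.64, 9.04 and 8.94 (0.59, SE 0.12, adjusted p = 0.0323), and here replicate 1 was the lowest KA array, unlike in wild type.

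P2ry12 fell in fosB-null mice, from 9.15, 9.06 and 9.11 to 8.83, 8.34 and 8.37 (-0.59, SE 0.11, adjusted p = 0.0212). Replicate 1 of KA stood between the saline arrays and the pair of arrays of set 3. Of the members that missed the threshold, Ly86 came nearest, at 10.43, 10.52 and 10.50 in saline and 10.94, 11.30 and 11.31 after KA (0.70, adjusted p = 0.063). Groups did not overlap for 13 members that were higher and 2 that were lower, against 7.71 and 9.57% of all genes.

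These fosB-null calls were lost in both settings that treat the array sets. With the array set as a block 0 members passed, with differences of 0.79 for Cd63, 0.49 for Cd9, 0.27 for Gpnmb and -0.38 for P2ry12, and without the 4 arrays of set 3, which leaves 1 KA array, 0 passed as well. There Cd63 (0.93, adjusted p = 0.625) and Cd9 (0.54, adjusted p = 0.238) were about as large as with all arrays, while Gpnmb was at 0.36 (adjusted p = 0.805) and P2ry12 at -0.28 (adjusted p = 0.805). All 4 kept their sign in replicate 1 alone, which is among the arrays that gave the calls. With the replicate number as a block, which pairs the arrays here, 6 members passed, the others being Fcrls (0.64) and Ly86 (0.70). Leaving out fosB-null saline replicate 3, or KA replicate 2 or 3, left 1 member, and leaving out KA replicate 1 gave 6.

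In fosB d/d mice 0 members passed with KA in limma, against 0.461% of all genes, while 14 of 34 had an unadjusted p under 0.05, 11 higher and 3 lower, where 12.2% of all genes did. The median member differed by 0.07. Ly86 was at 10.26, 10.07 and 10.12 in saline and 10.66, 11.32 and 10.46 after KA, higher in every KA array but spread over most of a log2 unit (0.67, SE 0.16, adjusted p = 0.0875). Gpnmb was at 8.81, 8.67 and 8.57 and then 9.08, 9.33 and 9.18 (0.52, SE 0.12, adjusted p = 0.0767). With the replicate number as a block, which pairs the arrays here too, 3 members passed: Ctss (0.33), Cd52 (0.60) and Gpnmb (0.52). Leaving out KA replicate 3 let 1 member pass. Groups did not overlap for 9 members that were higher and 2 that were lower, against 7.33 and 8.71% of all genes.

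**Figure D2:**
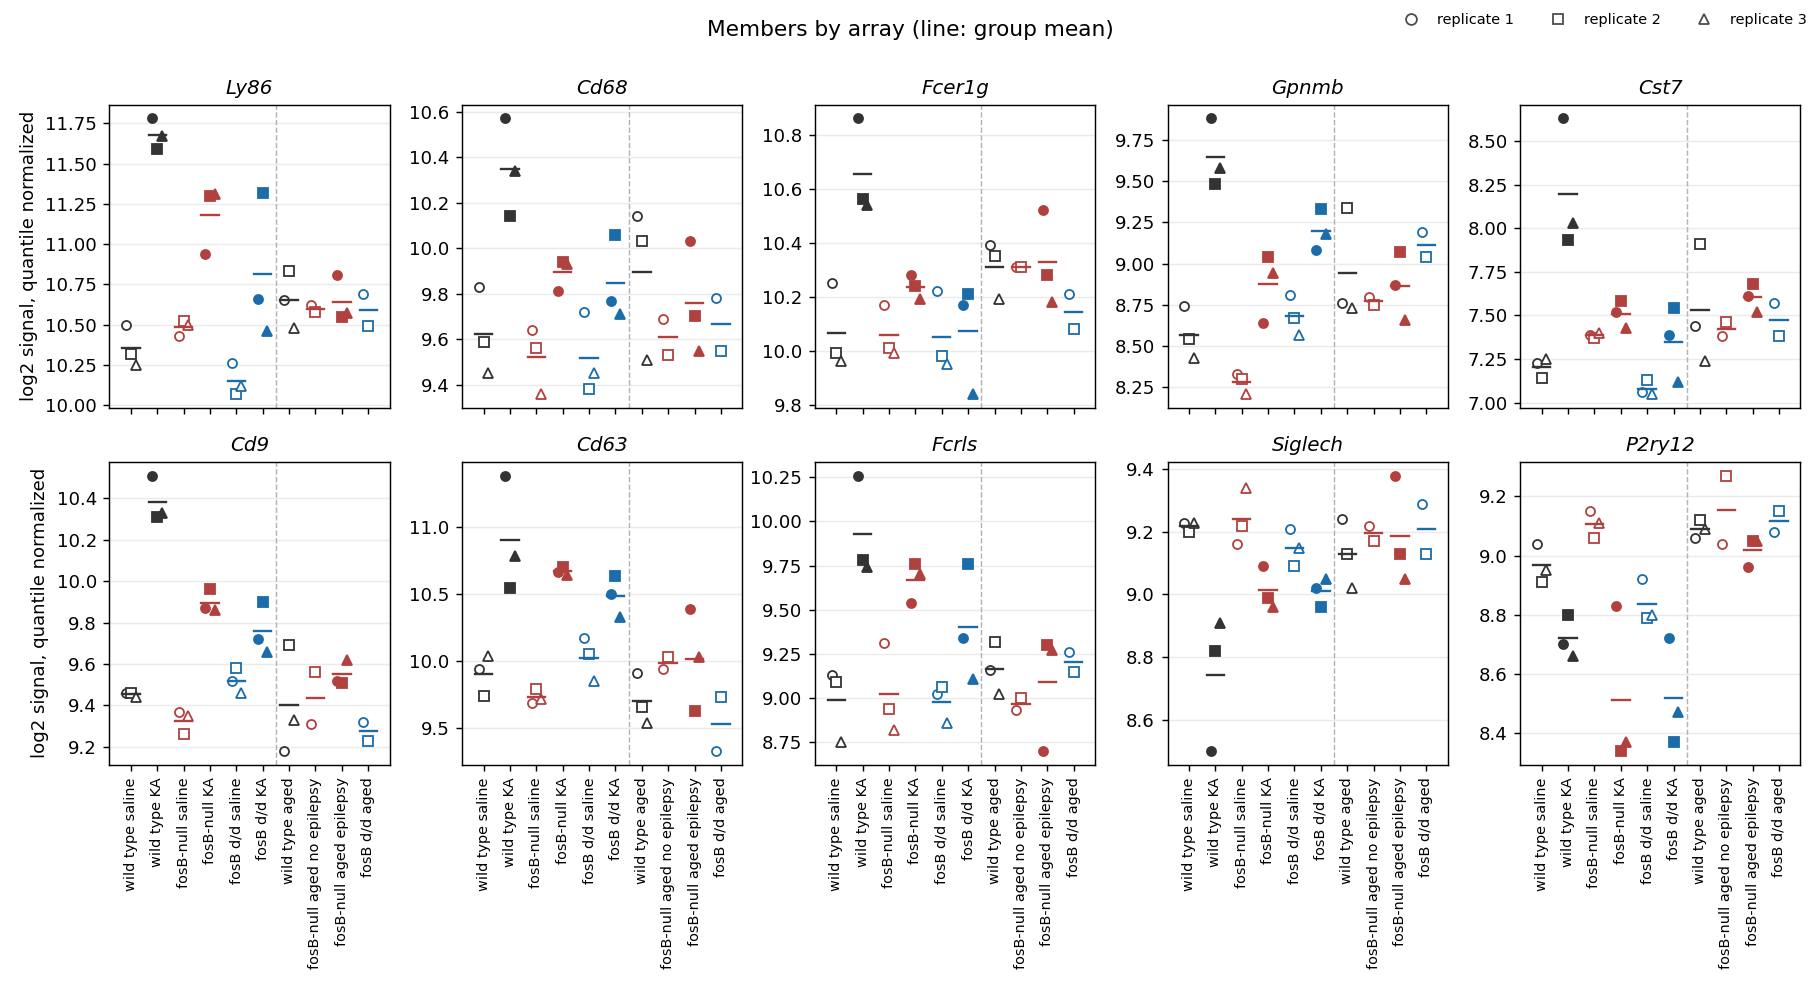
Quantile-normalized log2 signal of 10 members in each of the 28 arrays; symbols give the replicate number, colours the genotype, filled symbols KA or epilepsy, lines the group means, and the dashed line parts young from aged mice. For Cd9 the 3 wild type KA arrays (10.31 to 10.51) lie above all other arrays, of which fosB-null KA reaches 9.96 and fosB d/d KA 9.90.

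Few members passed the test of the difference between KA responses. In simulated data this test for fosB-null recovered 4.0% of changes of 0.5 log2 units and 84.0% of changes of 1.0. The test of KA in fosB-null alone recovered 54.5 and 97.5%. The simulation changed 200 of 19938 genes and drew noise for each array separately, without array sets or paired replicates. These shares need not hold for the real arrays. For fosB-null minus wild type 0 members passed in limma, against 0.176% of all genes, and 11 had an unadjusted p under 0.05 (13.7% of all genes), 10 of them negative. Cst7 came nearest: it was at 7.39, 7.37 and 7.40 in fosB-null saline and 7.52, 7.58 and 7.43 after KA, a response smaller than in wild type by -0.87 (SE 0.20, 95% interval -1.29 to -0.45, adjusted p = 0.0817). Without wild type KA replicate 1, where Cst7 was highest, the count was 1, and with the array set as a block 2 members passed, Cd52 (-0.72) and Gpnmb (-0.81).

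For fosB d/d minus wild type 1 member passed, against 0.0301% of all genes (0.0201% lower). Cd9 was at 9.52, 9.58 and 9.46 in fosB d/d saline and 9.72, 9.90 and 9.66 after KA, so its response of 0.24 was smaller than that of wild type by -0.69 (SE 0.11, adjusted p = 0.0383). A further 12 members had an unadjusted p under 0.05, 11 of them negative, where 7.95% of all genes did. The Cd9 call is fragile in its adjusted p and not in its size: it was lost in 13 of 21 alternative settings, yet the difference stayed between -0.78 and -0.58. With the array set as a block it was -0.76, and 4 members passed, with Cd68 (-0.67), Fcer1g (-0.66) and Gpnmb (-0.88).

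Both differences were negative for 28 of 34 members, with medians of -0.19 and -0.18 where the median of all genes was -0.014 and -0.012. They share the wild type arrays and are not independent of each other. All 18 members that passed in wild type had a smaller response in each mutant, 17 of them with the same sign, and fosB-null mice had 3 of the 18 past the threshold and fosB d/d mice had 0. These 18 were chosen by their wild type response, so a smaller value elsewhere is partly built into the choice and carries no test. In replicate 1 alone, where all 6 groups are in the same set, the difference was negative for 21 of 34 members in fosB-null (median -0.08) and 25 of 34 in fosB d/d (median -0.21).

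Set directly against wild type after KA, both mutants had some activation genes lower. In fosB-null 3 members were lower and 0 higher, against 0.792% of all genes (0.286% higher, 0.507% lower). Gpnmb, at 8.64 to 9.04 against 9.48 to 9.88, was lower by -0.77 (SE 0.12, adjusted p = 0.00672), Cst7 by -0.69 (SE 0.14, adjusted p = 0.0329) and Cd9 by -0.49 (SE 0.07, adjusted p = 0.00551). None of the 3 overlapped between the groups. In all, 12 members were lower and 2 higher without overlap, against 10.3 and 6.12% of all genes. With the replicate number as a block, which pairs these arrays, 5 members passed, with Fcer1g and Fcgr3 added, and with the array set as a block also 5, with Cd68 and Fcer1g added. Without the set 3 arrays 2 members passed, Gpnmb (-1.0, adjusted p = 0.0217) and Ly86 (-0.74, adjusted p = 0.0242), while Cd9 (-0.51, adjusted p = 0.0606) and Cst7 (-0.68, adjusted p = 0.286) kept their size and did not pass.

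In fosB d/d 4 members were lower and 0 higher, against 0.687% of all genes (0.211% higher, 0.476% lower). Cd9 was lower by -0.62 (SE 0.07, adjusted p = 0.00106) and Cst7, at 7.39, 7.54 and 7.12 against 8.63, 7.93 and 8.03, by -0.85 (SE 0.14, adjusted p = 0.0107). Ly86 was lower by -0.87 (SE 0.16, adjusted p = 0.0216), and Fcer1g, at 10.17, 10.21 and 9.84 against 10.86, 10.56 and 10.54, by -0.58 (SE 0.12, adjusted p = 0.0296). In each the highest fosB d/d array was below the lowest wild type array, and 13 members were lower and 2 higher in that way, against 8.16 and 5.85% of all genes. With the array set as a block 10 members passed, and without the set 3 arrays 2, Cd9 (-0.66) and Ly86 (-1.02), with Cst7 at -0.81 (adjusted p = 0.151) and Fcer1g at -0.49 (adjusted p = 0.305). Without fosB d/d KA replicate 3, the lowest array for Ly86, Cst7 and Fcer1g, 1 member passed. Cd9 and Cst7 passed in both mutants, which share the wild type KA arrays. For both mutants the array set block takes the KA level mainly from replicate 1.

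Before KA the median member hardly differed between either mutant and wild type. In saline 0 members passed for fosB-null minus wild type in limma, against 0.0802% of all genes, and 5 had an unadjusted p under 0.05 (8.77% of all genes). For fosB d/d minus wild type 0 passed, against 0.01%, and only Itgam had an unadjusted p under 0.05 (1.82% of all genes). Its signal was 8.49, 8.52 and 8.32 in wild type, 8.25, 8.12 and 8.09 in fosB-null and 8.19, 8.22 and 8.17 in fosB d/d. Every mutant array lay below every wild type array, with differences of -0.29 in fosB-null (SE 0.10, adjusted p = 0.402) and -0.25 in fosB d/d (SE 0.10, adjusted p = 1). Gpnmb already differed by -0.29 in fosB-null saline (adjusted p = 0.522). The median member differed by -0.01 and -0.02. Replicate numbers pair the saline arrays of fosB d/d and wild type (correlations of 0.40 to 0.77). The fit given here leaves that pairing out.

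Role by role, the median homeostatic gene stayed near its saline level in every young group. The medians of the pan-myeloid, Trem2 and Fc receptor, and activation genes set wild type KA apart from the rest. The median homeostatic gene, relative to the wild type saline mean, was 0.08 to 0.10 in the wild type KA arrays, 0.04 to 0.06 in fosB-null KA and -0.03 to 0.06 in fosB d/d KA. The saline arrays of wild type themselves ran from -0.09 to 0.06. Pan-myeloid medians were 0.47 to 0.49 in wild type KA, 0.19 to 0.32 in fosB-null KA and 0.09 to 0.31 in fosB d/d KA, where wild type saline ran from -0.11 to 0.15. The wild type KA arrays were above all mutant KA arrays in this role. Medians of the Trem2 and Fc receptor group were 0.42 to 0.67 in wild type KA, 0.08 to 0.22 in fosB-null KA and -0.05 to 0.09 in fosB d/d KA. Activation medians were 0.22 to 0.27 in wild type KA, 0.07 to 0.12 in fosB-null KA and -0.01 to 0.20 in fosB d/d KA, and again did not overlap with wild type KA. These medians summarise members chosen with earlier results known and carry no test.

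**Figure D3:**
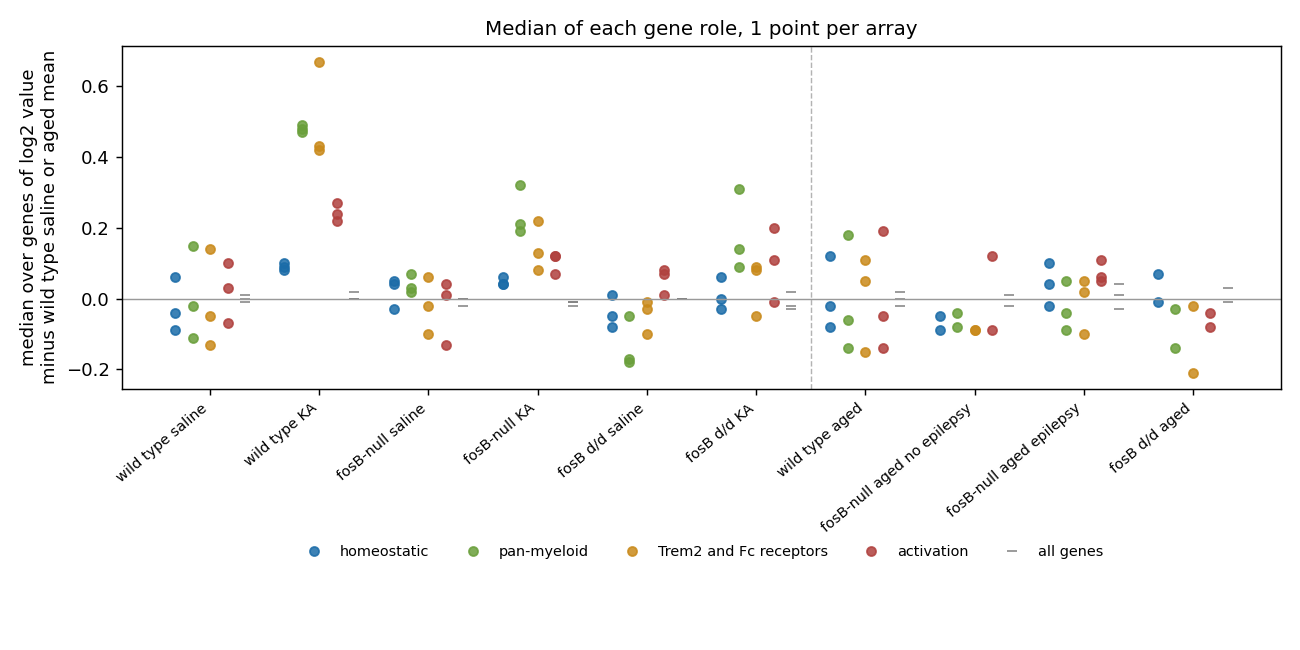
Median over the genes of each role of the log2 value minus the mean of wild type saline (young) or wild type aged (aged), 1 point per array; grey dashes are all genes. Pan-myeloid points reach 0.47 to 0.49 in wild type KA and 0.09 to 0.32 in the mutant KA groups, while homeostatic points stay between -0.09 and 0.12 in all groups.

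Other genes, taken from lists drawn up for microglia, moved beside the members in wild type. Which cells gave their signal, here and in the mutants, was not tested. Of 5 measured transcription factors of microglia 3 rose: Spi1, which encodes PU.1 (0.82, adjusted p = 0.000718), Runx1 (0.61) and Irf8 (0.45). Of 4 ligands that act on microglia 2 rose, the growth factor Csf1 (0.65, adjusted p = 0.0179) and Tgfb1 (0.50). All 6 measured complement genes rose, with C4b at 1.03 and C1qc at 0.52. Of 21 other activation genes 10 rose and 0 fell, among them the Fc receptor Fcgr2b (1.56), the hyaluronan receptor Cd44 (2.14) and the actin-capping protein Capg (1.00). The 13 other homeostatic genes again split, with Olfml3 (0.86) and P2ry6 (0.75) higher and Mertk (-0.44) and Cd33 (-0.38) lower.

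In the mutants fewer of these passed, and their values are given without a check for the array set. C4b (0.89 and 0.91) and Fcgr2b (0.76 and 0.68) rose in both mutants (fosB-null first), and Cd44 (1.47) and Vim (0.97) rose in fosB-null. Of the 13 other homeostatic genes 1 was lower with KA in fosB-null (limma adjusted p = 0.0488), and 0 passed in fosB d/d. Against wild type KA, Capg was lower in both (-0.54 and -0.55), and Cd44 (-1.44), Fcgr2b (-0.86) and Runx1 (-0.50) were lower in fosB d/d. The complement list had 0 of 6 passing in either of these comparisons, with medians of -0.33 and -0.38.

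Markers of other cells were read beside these results. With KA in wild type 0 of 8 border macrophage genes passed (median -0.19), 0 of 6 monocyte genes, 0 of 7 T cell genes and 1 of 8 neutrophil genes (Ly6g, 0.47). With the array set as a block, some border macrophage genes did pass in wild type. Pf4 (-0.42, limma adjusted p = 0.00485) and Cbr2 (-0.32, adjusted p = 0.0388) fell, and Cd163 rose (0.21, adjusted p = 0.0243). The summed monocyte signal was 10.57 to 10.76 in wild type saline and 10.45 to 10.80 after KA, and the summed T cell signal 9.87 to 10.00 and 9.96 to 10.05. The monocyte ranges overlap; of its 6 genes 3 had positive differences, the largest that of Chil3 (1.01, SE 0.59, adjusted p = 0.376). Among astrocyte markers Gfap (1.56) and Aqp4 (0.77) rose and Gja1 (-0.98) and S100b (-0.40) fell. Astrocytes also make Apoe, Cd9 and Cd63, and their part in those values was not tested. The rise of Gfap was 1.32 for fosB-null and 1.27 for fosB d/d mice. With the array set as a block it was 1.04 and 1.00, against 1.56 in wild type.

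Some of these markers also moved in the mutants. Of the 8 border macrophage genes Cbr2, a carbonyl reductase, rose with KA in fosB-null (0.48, SE 0.10, adjusted p = 0.0364). Its response differed from that of wild type by 0.81 (SE 0.14, adjusted p = 0.0355), and after KA it was higher than in wild type by 0.50 (adjusted p = 0.033). It was the only gene of its list to pass in these comparisons, with list medians of 0.12, 0.36 and 0.24. With the array set as a block the 3 values of Cbr2 were 0.56 (limma adjusted p = 0.204), 0.88 (adjusted p = 0.0262) and 0.57 (adjusted p = 0.0429). In that setting Pf4 passed too in the response difference (0.71, adjusted p = 0.0333). The wild type responses that enter these differences were -0.32 for Cbr2 and -0.42 for Pf4 with the block. Without set 3, which leaves 1 fosB-null KA array, the values of Cbr2 were 0.57, 0.89 and 0.58. In fosB d/d 0 of the 8 passed with KA, in the response difference or against wild type KA, where 7 of 8 differences were positive (median 0.18). The astrocyte connexin Gja1 was higher than in wild type after KA in fosB-null (0.48, adjusted p = 0.0456) and in fosB d/d (0.53, adjusted p = 0.0283). With the array set as a block these were 0.61 (limma adjusted p = 0.0189) and 0.66 (adjusted p = 0.0108), and without set 3 0.58 and 0.72. With the block Gfap (-0.66, adjusted p = 0.0207) and Aqp4 (-0.48, adjusted p = 0.0142) were lower in fosB d/d than in wild type after KA. In fosB-null they were at -0.53 (adjusted p = 0.0636) and -0.24 (adjusted p = 0.245). Without the block 0 astrocyte markers were called lower in either mutant. The summed border macrophage signal was 10.37 to 10.53 in wild type KA, 10.45 to 10.78 in fosB-null KA and 10.53 to 10.63 in fosB d/d KA, and the astrocyte sums overlapped at 13.97 to 14.15, 13.93 to 14.11 and 13.82 to 14.15. The part of both lists in the member results was not tested.

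Choroid plexus genes varied from array to array within the dissections. All 11 had positive differences with KA in wild type, none passing (median 0.88, smallest adjusted p = 0.329), and their summed signal was 13.65, 12.77 and 14.92 in wild type saline and 14.94, 14.72 and 14.26 after KA. In fosB-null the sums were 12.47, 14.84 and 14.87 in saline and 14.97, 14.40 and 14.62 after KA, and in fosB d/d 14.93, 15.03 and 14.73 and then 14.88, 14.87 and 14.95. The lowest sums of the young arrays were in saline groups, and the part of this list in the member results was not tested. For the KA response differences all 11 genes were negative in both mutants, with medians of -0.48 and -0.87, again none passing. After KA the sums of the 3 genotypes overlap.

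In aged mice no member passed between genotypes or with epilepsy. For fosB-null with epilepsy against wild type 0 of 34 members passed in limma, where 0% of all genes did, and 0 had an unadjusted p under 0.05 (3.37% of all genes). The median member differed by 0.01, and the widest single differences were 0.32 for Lyz2 and 0.31 for Cd63. Ly86 was at 10.81, 10.55 and 10.57 with epilepsy and 10.65, 10.83 and 10.48 in wild type, so the arrays were interleaved. Cst7 likewise ran from 7.52 to 7.68 with epilepsy and from 7.24 to 7.91 in wild type. Replicate numbers pair these arrays (correlations of 0.21 to 0.50), and the fit given here leaves that pairing out.

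Within aged fosB-null mice, epilepsy against no epilepsy also gave 0 members, where 0% of all genes passed, and 2 members had an unadjusted p under 0.05 (9.77% of all genes). Tmem119 was at 9.94, 10.00 and 9.70 with epilepsy and 9.57 and 9.50 without (0.35, SE 0.11, adjusted p = 0.349), and Fcgr3 at 8.94, 9.0 and 8.80 against 8.73 and 8.52 (0.29, SE 0.12, adjusted p = 0.457). The groups were apart in both genes. Over all members, 12 were higher without overlap and 0 lower, against 14.4 and 12.4% of all genes, and 27 of 34 differences were positive, with a median of 0.10. The summed choroid plexus signal was 14.99, 12.81 and 15.12 with epilepsy and 14.75 and 15.14 without. All 8 border macrophage genes were higher with epilepsy (median 0.22), and 0 passed.

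The remaining aged comparisons gave the same count. For fosB-null without epilepsy against wild type 0 members passed in limma (0.0351% of all genes), and 3 had an unadjusted p under 0.05 (11.2% of all genes): Tmem119 (-0.25), Itgam (-0.24) and Fcgr3 (-0.29). For fosB d/d against wild type 0 passed (0.01% of all genes), and Itgam had an unadjusted p under 0.05, as 10.3% of all genes did (-0.30, SE 0.10, adjusted p = 0.345). Itgam was at 8.56, 8.79 and 8.53 in aged wild type, 8.30 and 8.47 in fosB-null without epilepsy and 8.28 and 8.37 in fosB d/d. It was thus below wild type in both of these groups, as in the young saline mice, while fosB-null with epilepsy (8.67, 8.53 and 8.51) overlapped wild type.

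Markers of other cells differed between the aged groups too, with 0 choroid plexus or border macrophage genes passing. The summed choroid plexus signal was 12.04 to 13.22 in aged wild type and 12.03 to 12.25 in aged fosB d/d, below both fosB-null arrays without epilepsy and 2 of the 3 with epilepsy. All 11 choroid plexus genes were higher in fosB-null without epilepsy than in wild type (median 2.13, all with an unadjusted p under 0.05, smallest adjusted p = 0.159), and all 11 in fosB-null with epilepsy (median 1.45, 9 with such a p). All 8 border macrophage genes were higher in fosB-null with epilepsy than in wild type (median 0.28, 3 with such a p). The part of these lists in the aged member values was not tested.

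**Figure D4:**
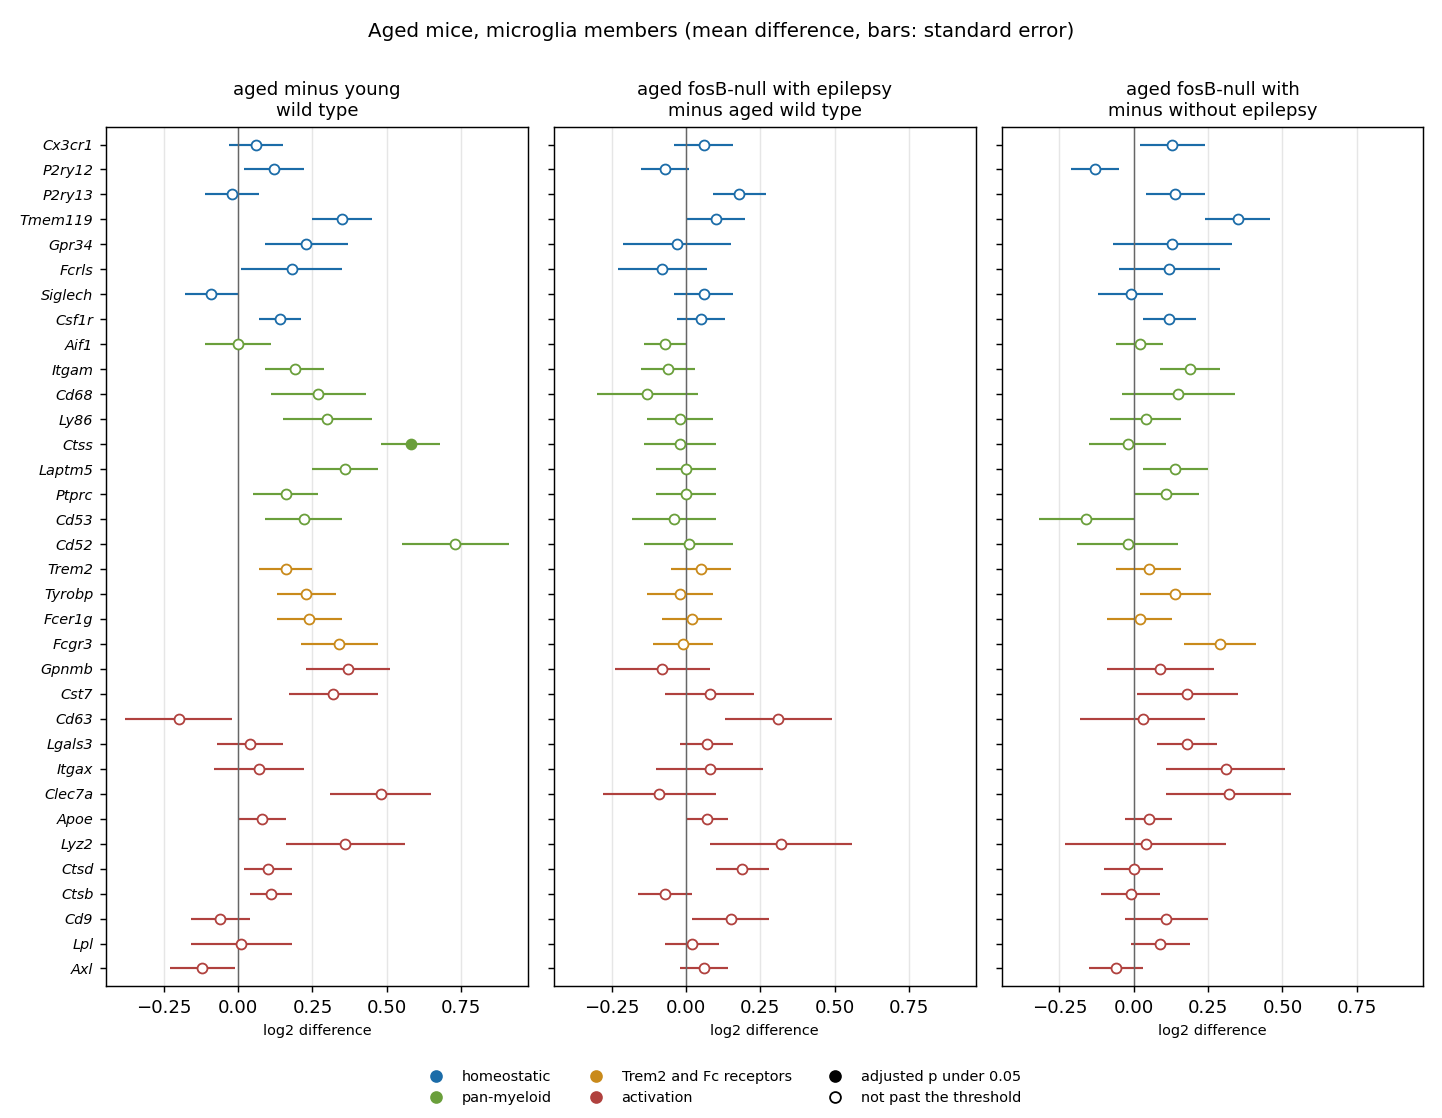
Log2 difference of group means for the 34 members in aged against young wild type, aged fosB-null with epilepsy against aged wild type, and aged fosB-null with against without epilepsy; bars are standard errors and filled points have an adjusted p under 0.05. Ctss in aged against young wild type (0.58) is the only filled point in these 3 comparisons.

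Aged against young wild type gave 1 member, Ctss, against 0.171% of all genes (0.11% higher). It was at 9.96, 10.15 and 9.72 in aged and 9.46, 9.34 and 9.28 in young saline mice, apart in every array (0.58, SE 0.10, adjusted p = 0.0115). It no longer passed without wild type aged replicate 2, the array with the highest median in each role, or without wild type saline replicate 2 or 3. Another 10 members had an unadjusted p under 0.05, all higher in aged mice, where 7.95% of all genes had such a p. Among them were Cd52 (0.73, adjusted p = 0.139), Clec7a (0.48, adjusted p = 0.43) and Tmem119 (0.35, adjusted p = 0.269). In this comparison 28 of 34 differences were positive (median 0.17), and 7 members were higher without overlap and 0 lower, against 5.49 and 6.06% of all genes. Of the complement list C4b rose, by 1.41 (adjusted p = 0.00213). All 8 border macrophage genes were lower in aged than in young wild type (median -0.27, 4 with an unadjusted p under 0.05, 0 passing), as were all 11 choroid plexus genes (median -0.92, 0 with such a p), while the astrocyte marker S100b was higher (0.50, adjusted p = 0.0455). The part of these markers was not tested. Age, sex-linked signal and injection cannot be told apart here.

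Across the 14 comparisons 19 members passed at least once and 15 never did. The 15 were the homeostatic genes Cx3cr1, P2ry13, Tmem119, Gpr34 and Csf1r, the pan-myeloid genes Aif1, Itgam and Laptm5, the receptor Trem2, and the activation genes Lgals3, Itgax, Lyz2, Ctsb, Lpl and Axl.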

How the data were processed

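RNA of 28 hippocampus samples was measured on Affymetrix arrays. The deposited values are log2 signals for 35557 probe sets, made by the authors with Affymetrix Expression Console, per the submitters' processing notes (algorithm: not given in the sources used here). Column medians differ (7.95 to 8.43), so values were quantile normalized. Probe sets with 1 symbol were kept (21789 of 35557; 1621 had several and 12147 none), named from the platform table and matched by Entrez identifier to RefSeq GRCm38.p6 (21698 matched, 0 symbols changed), with the brightest probe set per gene. Young and aged arrays were fitted apart, except for aged minus young wild type, which used all 28. Group contrasts were fitted in limma 3.58.1 under R 4.3.3, with Benjamini-Hochberg adjustment over 19938 genes and a threshold of 0.05. Arrays of a group correlated at 0.986 to 0.998, and their number limits the precision. The procedure was tested on simulated data.

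Any member could be named, and those that passed are given by array in the groups compared; up to 4 genes of other lists were named per comparison. The members and lists were chosen with earlier results of these data known. The fosB d/d saline arrays have a source name that says kainate, and were grouped by title and treatment. Replicate numbers recur: deviations of same-numbered arrays from group means correlated above 0.1 in every pair for KA in fosB-null (0.23 to 0.38) and fosB d/d (0.26 to 0.36), saline fosB d/d and wild type (0.40 to 0.77), KA in fosB-null and wild type (0.35 to 0.48) and epileptic fosB-null and wild type in aged mice (0.21 to 0.50). Alternatives were the deposited scale, median centring, replicate block, array set block, set 2 only, only the groups compared, the mean over a gene's probe sets, moderation with trend and robust settings, the dimmest 30 percent left out, age as a covariate and each array left out; leaving out set 3 was added after seeing the data.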

Additional observations from a re-analysis of the deposited data

Results flagged for a closer look

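The KA response of Cd9 in fosB d/d mice differed from that in wild type by -0.69 log2 units (SE 0.11, limma adjusted p = 0.0383), by the test of the difference itself. It ranged from -0.78 to -0.58 over 21 alternative settings, passed in 8 of them, and its adjusted p ran from 0.00668 to 0.233.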

How the results depend on the processing

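Members that passed, with KA in wild type (18), numbered 10 on the deposited scale and 8 with only the groups compared. With KA in fosB-null (4) they numbered 0 on the deposited scale, 1 with only the groups compared, 0 with the array set block and 0 without set 3. With KA in fosB d/d (0) the replicate block gave 3. For the KA response difference of fosB-null (0) the deposited scale, the replicate block and leaving out set 3 gave 1 each and the array set block 2; for that of fosB d/d (1) the deposited scale, median centring and only the groups compared gave 0 and the array set block 4. On the deposited scale the median of all genes was -0.20 for fosB-null and -0.22 for fosB d/d minus wild type after KA. For fosB-null minus wild type after KA (3) the count was 6 on the deposited scale, 5 with either block and 0 with only the groups compared. For fosB d/d minus wild type after KA (4) it was 10 on the deposited scale and with the array set block, 2 with median centring and without set 3, 8 with the replicate block and 0 with only the groups compared. For aged minus young wild type (1) it was 0 on the deposited scale and with only the groups compared, and 2 with the replicate block. Over these comparisons in order, leaving out 1 array in turn gave 13 to 18, 1 to 6, 0 to 1, 0 to 1, 0 to 2, 2 to 3, 1 to 4 and 0 to 2, and 0 to 0 in the other 6. The cause of these changes was not tested, other than that fewer arrays enter the fits of only the groups compared.

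Of 463 recomputed values of called members 348 passed, 115 did not and 0 changed sign. Cd63, Cd68, Cd9, Cst7, Fcrls, Gpnmb and Ly86 passed with KA in wild type under every alternative run on them. The replicate block where numbers do not pair the arrays gave 20 members with KA in wild type. Of the measured members 7 of 34 are among the dimmest 30 percent of genes: Gpr34, Aif1, Ptprc, Cd52, Cst7, Itgax and Clec7a. Where a replicate left out leaves 1 array in a group, that array is taken to vary like the other groups.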

Other observations

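Lpl, a lipase that microglia and neurons make, did not pass in any comparison but parted by array within KA groups: it was at 9.44, 8.88 and 8.72 in fosB-null KA and at 9.23, 8.66 and 8.49 in fosB d/d KA, where replicates 2 and 3 are the arrays of set 3, and at 9.21, 9.29 and 9.25 in wild type KA. Xist, on the X chromosome, was at 5.91 to 9.58 in the young arrays and at 12.09 or more in every aged array.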
